A study of Mus musculus with 9 samples.

Results

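The genes described here are the collagen chain genes of the mouse: every gene whose symbol in the array's annotation reads Col, a type number, the letter a and a chain number. There were 44 of them among the 22180 genes with a probe set assigned to a single symbol, and all 44 were measured; where a gene had several such probe sets, the one with the highest mean over all arrays was taken. They were measured in mouse embryonic fibroblasts (MEFs), the connective tissue cells that grow out of cultured embryos, on 9 GeneChip MoGene 2.0 arrays, whose values are log2 signals. The cells came in 3 genotypes: wild type (WT, labelled STING+/+), STING knockout (SKO, STING-/-) and MyD88 knockout (MyD88KO, MyD88-/-). Cells of each genotype were kept as a mock control, described in the protocol as untreated, transfected for 6 h with ISD, a double-stranded DNA (dsDNA) that stimulates interferon, or exposed for 6 h to LPS, the bacterial lipopolysaccharide, with 1 array for each. STING carries the signal of DNA in the cytosol, and MyD88 is the adaptor of most Toll-like receptors, including the one that senses LPS. The labels do not give the strain, the embryonic age, whether the knockout cells were littermates of the wild type, or whether the mock cells received transfection reagent.

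Collagens are trimers of chains that wind into a triple helix, and the class of a chain says what it builds. Fibrillar chains (types I, II, III, V, XI, XXIV and XXVII) form the banded fibrils of connective tissue and cartilage, network chains (types IV, VIII and X) form sheets such as the basement membrane, and type VI chains form the beaded filaments that surround cells. The fibril-associated types decorate fibrils, and further collagens span the cell membrane or, like types XV and XVIII, sit at basement membranes. Fibroblasts are the main makers of types I, III, V and VI, whereas types II, IX, X and XI are best known from cartilage. By these classes the 44 genes held 11 fibrillar, 9 network, 6 type VI, 9 fibril-associated and 4 transmembrane chains, 2 chains of types XV and XVIII, and 3 others (Col7a1, Col26a1 and Col28a1).

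The 4 collagen genes with the largest increases described here, the type VI chains Col6a1, Col6a2 and Col6a3 and the type X chain Col10a1, are shown with the 250 bases before their transcription start, because all of them rose by more than 2-fold in MyD88KO over WT cells. The sequences are from RefSeq for the build GRCm38.p6, 5′ to 3′ on the gene's strand, in lower case with motif matches in capitals. They lie at chr10:76726045-76726294 (minus strand) for Col6a1, chr10:76623631-76623880 (minus strand) for Col6a2, chr1:90843972-90844221 (minus strand) for Col6a3 and chr10:34389731-34389980 (plus strand) for Col10a1.
Col6a1: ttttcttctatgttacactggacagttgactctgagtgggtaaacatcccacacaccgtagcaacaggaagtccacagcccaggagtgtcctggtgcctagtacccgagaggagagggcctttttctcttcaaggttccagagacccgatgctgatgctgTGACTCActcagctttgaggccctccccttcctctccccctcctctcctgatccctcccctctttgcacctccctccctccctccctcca
Col6a2: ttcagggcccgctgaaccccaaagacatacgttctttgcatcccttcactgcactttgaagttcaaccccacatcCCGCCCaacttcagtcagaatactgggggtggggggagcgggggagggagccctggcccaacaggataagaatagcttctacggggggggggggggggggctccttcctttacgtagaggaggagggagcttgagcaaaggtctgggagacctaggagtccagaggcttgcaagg
Col6a3: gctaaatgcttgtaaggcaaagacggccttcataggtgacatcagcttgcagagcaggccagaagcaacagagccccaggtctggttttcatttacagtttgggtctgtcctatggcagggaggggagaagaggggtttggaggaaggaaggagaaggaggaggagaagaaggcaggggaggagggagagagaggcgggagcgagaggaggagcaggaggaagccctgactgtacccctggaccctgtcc
Col10a1: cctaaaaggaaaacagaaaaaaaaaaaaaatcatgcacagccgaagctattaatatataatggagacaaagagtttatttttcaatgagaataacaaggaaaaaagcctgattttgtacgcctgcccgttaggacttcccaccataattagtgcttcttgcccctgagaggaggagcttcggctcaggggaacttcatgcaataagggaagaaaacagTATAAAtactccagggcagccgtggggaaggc
The motifs searched, on both strands, were the CCAAT box (CCAAT), the GC box (GGGCGG), the TATA box (TATAAA), the AP-1 motif (TGANTCA) and a core of the interferon-response element. In Col6a1 the capitals mark an AP-1 match from 90 to 84 bases before the start, in Col6a2 a GC box from 175 to 170 bases before the start shown, and in Col10a1 a TATA box from 32 to 27 bases before it. Col6a3 held no match to any of the 5 motifs in this window. Col6a2 has a second entry in the table, with a start downstream of the one shown, whose window held 3 GC box matches, from 67 to 62, 15 to 10 and 11 to 6 bases before that start.

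Of the 44 genes, 35 matched an entry of the promoter table, with 38 entries in all. The GC box was found in 22 of these 38 entries (57.9%), against 32.7% of all 32851 promoters of the same length. The CCAAT box was found in 13 entries (34.2%) against 33.8%, the TATA box in 5 (13.2%) against 12.4%, the AP-1 motif in 1 (2.63%) against 6.75%, and the interferon-response core in 0 against 2.98%. A match describes letters in the window and not a bound site. Col6a1 and Col6a2 lie next to each other on chromosome 10, with no other protein-coding gene between them in RefSeq, and Col6a3 lies on chromosome 1.

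The arrays were alike in overall level, with medians between 4.42 and 4.46 log2 units around a median of 4.44 over all values. Without detection calls a low signal could not be told from background: 39 of the 44 genes were at or above 4.44 on all 9 arrays, Col28a1, Col4a3, Col4a4 and Col6a4 on some, and Col6a5 on none (3.84 to 4.25). Sting1, the gene removed in SKO cells, read 8.54, 8.57 and 8.54 in WT cells (mock, dsDNA and LPS, the order used throughout), 4.54, 4.60 and 3.78 in SKO cells and 8.73, 9.32 and 8.87 in MyD88KO cells. Myd88 was 0.61 ± 0.18 (SE) log2 units lower in MyD88KO than in WT cells without passing the test (limma, adjusted p = 0.083), and because the position of its probes relative to the deletion is not given here, this value does not check the labels. Genotypes were compared with limma over the 3 arrays of each genotype, with treatment as a term and p-values adjusted over all 22180 genes by the Benjamini-Hochberg method; changes past an adjusted p of 0.05 are called rises and falls. The labels do not state if cells for the 3 arrays of a genotype were prepared separately; the p-values therefore cover only the spread among these arrays, and genotype and cell preparation cannot be told apart. The arrays measure whole cultures, in which fewer cells of a type and less RNA per cell cannot be told apart.

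The larger differences in the collagen genes set MyD88KO cells apart from both WT and SKO cells. Between MyD88KO and WT cells, 11 of the 44 rose and 3 fell, where 5.18% of all 22180 genes rose and 6.35% fell. With a further requirement of at least 2-fold, 4 rose and 2 fell, where 1.12% and 0.879% of all genes did. The rises were in type VI (3 of 6 chains), in fibrillar types I, III and V (5 of 11 fibrillar chains), in Col10a1, in Col12a1 and in Col15a1, and the falls were in Col11a1, Col2a1 and Col8a1. The median difference over the 44 genes was 0.07 log2 units, beside 0.00 over all genes. At an unadjusted p under 0.05 there were 19 collagen genes and 5115 genes in all.

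Type VI collagen gave the largest differences. Col6a3, the longest chain of the type VI trimer, read 6.41, 6.41 and 6.26 in WT cells, 5.93, 5.98 and 5.88 in SKO cells, and 9.54, 9.19 and 9.23 in MyD88KO cells. The WT mock and dsDNA arrays held the identical value of 6.41026, a tie whose origin is not stated. All 3 MyD88KO arrays lay above all 6 others, and the SKO arrays lay below the WT arrays. The MyD88KO minus WT difference was 2.96 ± 0.09 (SE) log2 units, or 7.78-fold (limma, adjusted p = 4.98e-06), and by treatment it was 3.13 in mock cells, 2.78 with dsDNA and 2.97 with LPS.

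Col6a2, which pairs with the α1 and α3 chains in the classical type VI trimer, read 7.12, 7.10 and 7.06 in WT cells, 7.15, 6.86 and 6.82 in SKO cells, and 9.16, 9.04 and 9.29 in MyD88KO cells. The MyD88KO arrays again stood clear of the other 6, whereas WT and SKO arrays overlapped. The difference from WT was 2.07 ± 0.09 log2 units, or 4.20-fold (limma, adjusted p = 2.2e-05). Col6a1, the remaining chain of that trimer, read 8.89, 8.53 and 8.74 in WT cells, 8.91, 8.71 and 8.73 in SKO cells, and 10.49, 10.29 and 10.50 in MyD88KO cells. WT and SKO arrays overlapped here too and the MyD88KO arrays did not overlap either of them, with a difference from WT of 1.71 ± 0.06 log2 units, or 3.26-fold (limma, adjusted p = 8.7e-06). A second probe set of Col6a1, read at a lower level, was higher on the MyD88KO array at every treatment, by 1.70 log2 units with dsDNA and 1.45 with LPS, and by 1.55 on average. A probe set that the annotation assigns to Col6a1 and 3 other symbols together differed by -0.06, 0.08 and -0.03 and was not used.

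**Figure D1:**
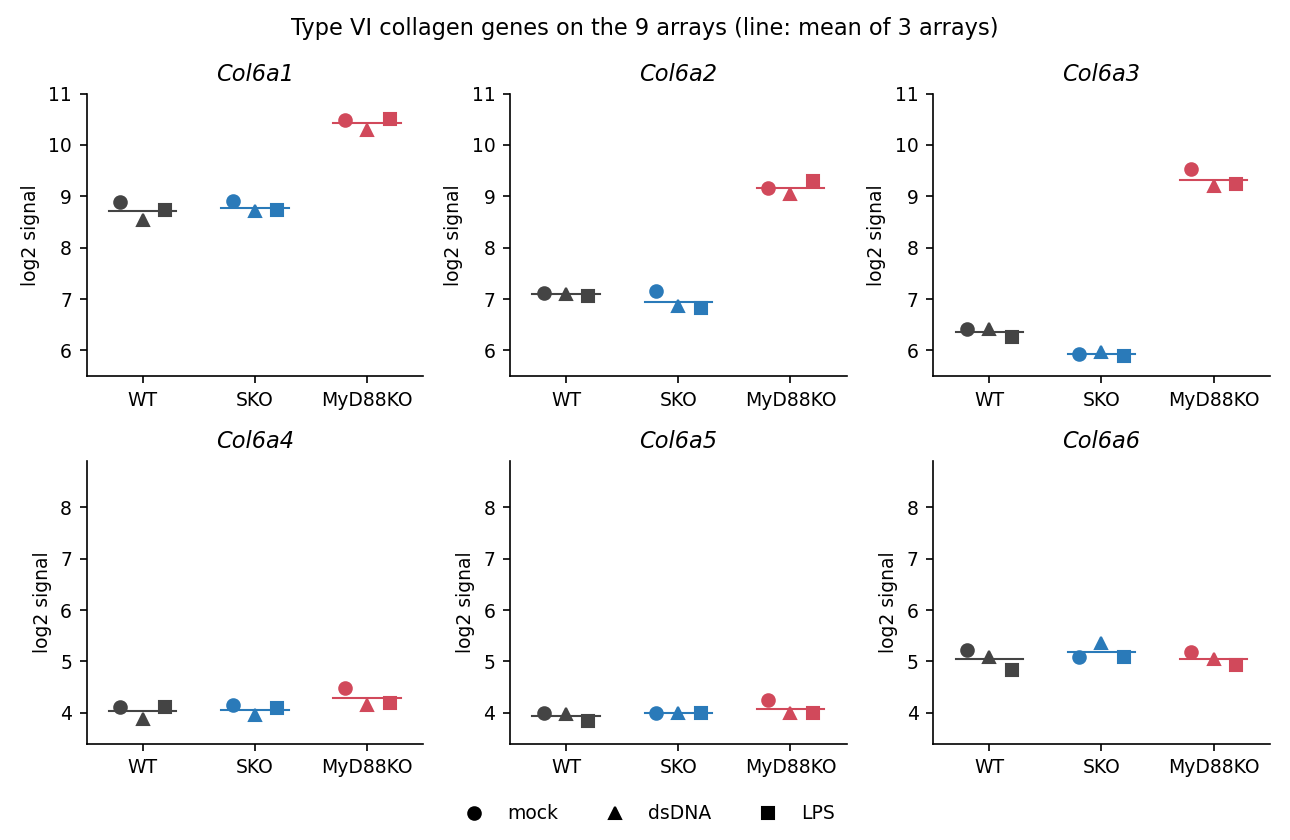
Log2 signal (vertical axis) of the 6 type VI collagen genes on each of the 9 arrays, by genotype (WT, SKO and MyD88KO) with a symbol for each treatment and a line at the mean of 3 arrays; all panels span the same range, starting lower in the bottom row. The MyD88KO arrays of Col6a3 read 9.19 to 9.54, above all WT arrays (6.26 to 6.41) and all SKO arrays (5.88 to 5.98).

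The other type VI chains, Col6a4, Col6a5 and Col6a6, which can take the place of the α3 chain and lie side by side on chromosome 9, read between 3.84 and 5.36 on every array. Their MyD88KO minus WT differences were 0.24 (limma, adjusted p = 0.149), 0.14 (0.428) and 0.01 (0.976) log2 units, and none passed the test.

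Among the fibrillar chains, 5 of the 6 chains of types I, III and V rose in MyD88KO cells by smaller amounts, Col5a3 being the exception. Col1a2, the α2 chain of type I collagen, read 10.63, 10.62 and 10.59 in WT cells, 10.50, 10.46 and 10.42 in SKO cells, and 11.23, 11.16 and 11.19 in MyD88KO cells. The genotypes did not overlap, and MyD88KO was the highest and SKO the lowest. The difference from WT was 0.58 ± 0.03 log2 units, or 1.49-fold (limma, adjusted p = 5.17e-05). Col1a1, its partner chain, read 11.87, 11.75 and 11.79 in WT and 12.18, 12.00 and 12.05 in MyD88KO cells, a difference of 0.27 ± 0.03 (adjusted p = 0.00155).

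The type V chains, which start and limit the growth of type I fibrils, and the type III chain, found with type I in soft tissues, followed. Col5a1 was 0.35 ± 0.06 log2 units higher (limma, adjusted p = 0.0111), Col5a2 0.24 ± 0.05 (0.0177) and Col3a1 0.22 ± 0.05 (0.0412). For each of them, all MyD88KO arrays were above all WT arrays; for Col3a1 the gap was narrow, with 8.84 to 9.02 in MyD88KO and 8.66 to 8.77 in WT cells. These are the calls that rest on single arrays: without the WT mock array the adjusted p was 0.0534 for Col5a1, 0.0983 for Col5a2 and 0.135 for Col3a1, and without the MyD88KO mock array it was 0.0542, 0.0966 and 0.176. Without the WT LPS array it was 0.0524, 0.102 and 0.163. Without the MyD88KO LPS array Col5a2 (0.0862) and Col3a1 (0.132) also missed the threshold, and Col3a1 did so without the WT dsDNA array (0.169), the SKO mock array (0.0506) or the SKO LPS array (0.0657) as well. With all 9 arrays kept but without limma's trend of variance on signal, Col5a2 (adjusted p = 0.0729) and Col3a1 (0.097) missed it too. The mean of the Col5a1 probe sets gave 0.23 (adjusted p = 0.0599), since its second, dimmer probe set differed by 0.10. Col5a3, the third type V chain, read 6.90, 7.17 and 7.39 in WT and 7.38, 7.88 and 7.57 in MyD88KO cells; its difference of 0.46 ± 0.13 did not pass (adjusted p = 0.0703), and its genotypes overlapped.

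Of the fibrillar chains best known from cartilage, Col11a1 and Col2a1 fell and Col11a2 did not pass the test (0.16, limma, adjusted p = 0.466). Col11a1, the α1 chain of type XI collagen, read 8.79, 8.72 and 8.84 in WT cells, 8.40, 8.41 and 8.40 in SKO cells, and 7.45, 7.22 and 7.41 in MyD88KO cells. The SKO mock and LPS arrays held the identical value of 8.40143, a tie whose origin is not stated, and the SKO SD was 0.004. WT was the highest, SKO lay below it and MyD88KO was the lowest, with no overlap between any of them. MyD88KO minus WT was -1.42 ± 0.06 log2 units, a 2.68-fold lower signal (limma, adjusted p = 2.2e-05).

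Col2a1, the single chain of type II collagen, read 6.89, 6.81 and 7.05 in WT cells, 7.23, 7.21 and 7.15 in SKO cells, and 6.32, 5.61 and 5.47 in MyD88KO cells. All MyD88KO arrays lay below the others, and the mock array was the highest of them. The difference was -1.12 ± 0.18 (limma, adjusted p = 0.00611), and by treatment it was -0.57 in mock, -1.20 with dsDNA and -1.59 with LPS, so its size varied more between treatments than that of the type VI chains. Col2a1 in MyD88KO cells had the highest SD of any collagen gene in any genotype, 0.455 over 3 arrays, against a median of 0.094. Col11a2, like Col24a1 and Col27a1, did not pass the test, and the signals of the 3 genes were 5.17 to 5.64, 4.87 to 5.09 and 6.40 to 6.62 over all 9 arrays.

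**Figure D2:**
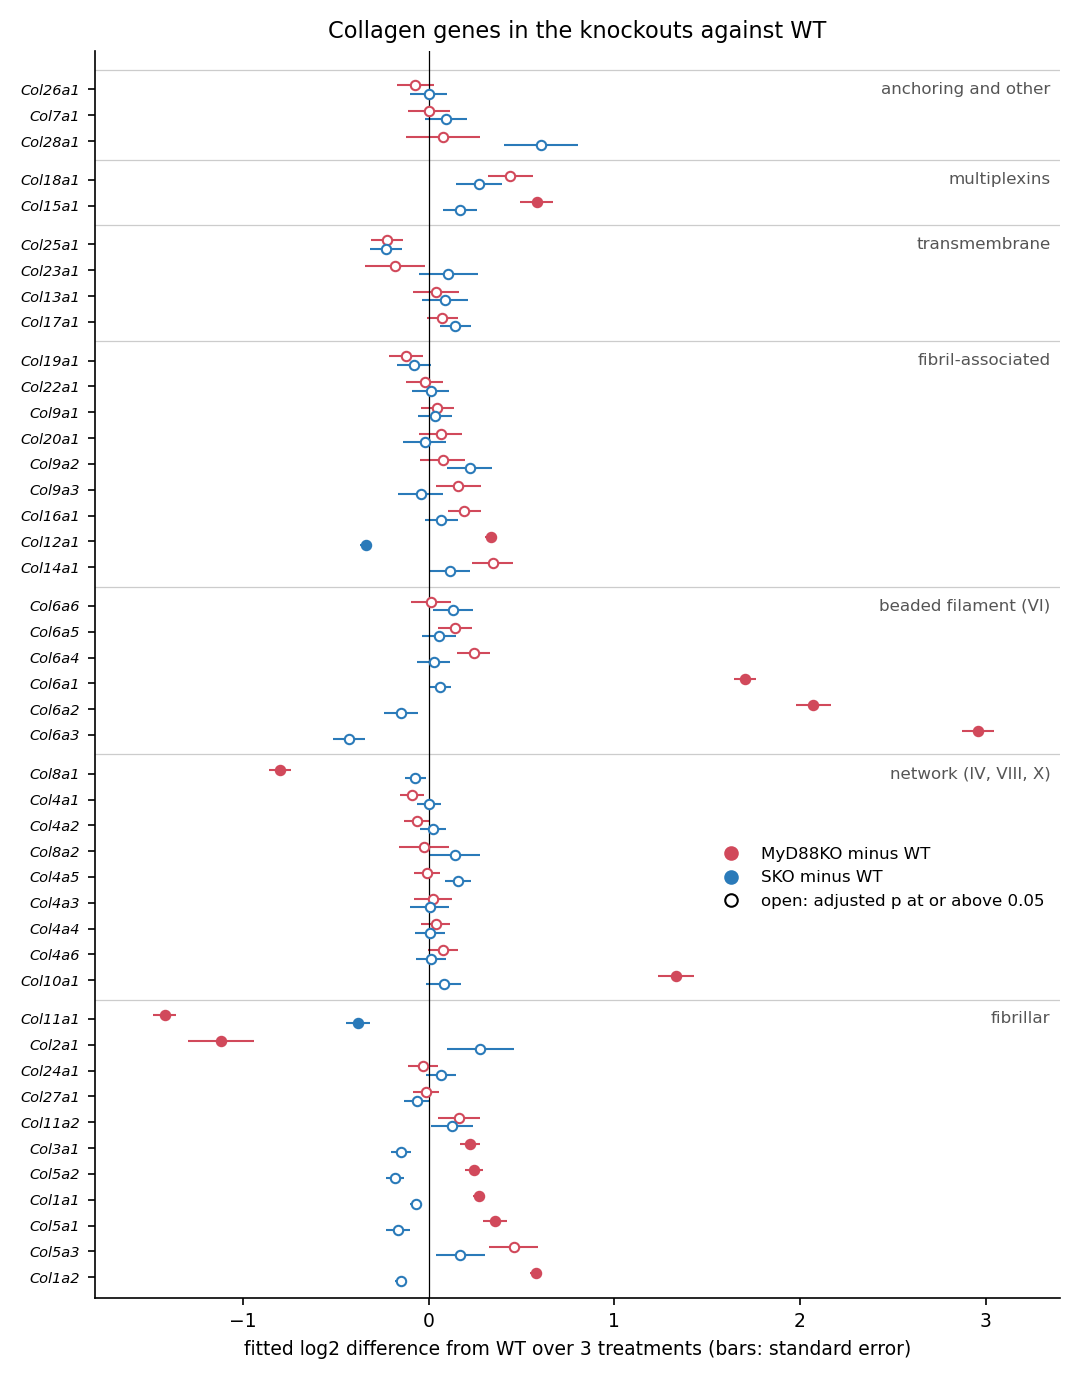
Fitted log2 difference (points, with bars of 1 SE from limma) of each of the 44 collagen genes from WT cells, in MyD88KO and in SKO cells, grouped by collagen class, filled where the adjusted p was under 0.05 and open elsewhere. Col6a3 (2.96), Col6a2 (2.07), Col6a1 (1.71) and Col10a1 (1.33) stand furthest to the side of higher signal in MyD88KO cells, and Col11a1 (-1.42) and Col2a1 (-1.12) furthest to the other.

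Of the 9 network chains, 1 rose and 1 fell in MyD88KO cells. Col10a1, the chain of type X collagen known from growth plate cartilage, read 5.42, 5.35 and 5.32 in WT cells, 5.53, 5.40 and 5.40 in SKO cells, and 6.62, 6.61 and 6.87 in MyD88KO cells. WT and SKO overlapped, and the MyD88KO arrays were all higher, by 1.33 ± 0.10 log2 units or 2.52-fold (limma, adjusted p = 0.00014). Col8a1, a chain of the short type VIII network of vessel walls and of Descemet's membrane, read 10.11, 10.09 and 10.29 in WT cells, 10.10, 10.05 and 10.12 in SKO cells, and 9.43, 9.19 and 9.46 in MyD88KO cells. The MyD88KO arrays were all lower, by 0.68 to 0.90 log2 units at matched treatment (fitted difference -0.80 ± 0.06, or 1.74-fold, limma, adjusted p = 0.000142).

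The 6 basement membrane chains of type IV did not pass the test between MyD88KO and WT cells. Col4a1 and Col4a2, which together form the common type IV trimer, differed by -0.09 and -0.06 log2 units (limma, adjusted p = 0.48 and 0.693), and their arrays overlapped between all genotypes. Col4a5 read 6.32 to 6.70, and Col4a3, Col4a4 and Col4a6 read 4.24 to 4.81, over all arrays.

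Among the fibril-associated collagens, Col12a1, which sits on type I fibrils, was the only one of 9 to pass in MyD88KO cells. It read 10.93, 10.84 and 10.90 in WT cells, 10.60, 10.50 and 10.54 in SKO cells, and 11.32, 11.14 and 11.21 in MyD88KO cells. The 3 genotypes did not overlap, and the MyD88KO minus WT difference was 0.34 ± 0.03 log2 units (limma, adjusted p = 0.000605).

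Col15a1, a basement membrane collagen, read 4.93, 4.96 and 4.79 in WT cells, 4.96, 5.12 and 5.11 in SKO cells and 5.37, 5.64 and 5.42 in MyD88KO cells, the highest of the genotypes by 0.58 ± 0.09 over WT (limma, adjusted p = 0.00553). Col18a1, the precursor of endostatin and the relative of Col15a1, was 0.44 ± 0.12 higher without passing (adjusted p = 0.0631). None of the 4 transmembrane chains, Col13a1, Col17a1, Col23a1 and Col25a1, passed, nor did the anchoring fibril chain Col7a1, Col26a1 or Col28a1. Counting genes whose 3 MyD88KO arrays lay wholly outside the 3 WT arrays, 15 collagen genes were all higher and 4 all lower, where 10.9% and 12.5% of all genes were.

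Genes of collagen assembly and binding were divided in the same comparison. Of 16 measured genes for modification and folding of chains, 3 rose and 2 fell. P4ha3, a subunit of the prolyl hydroxylase that stabilises the triple helix, read the same value of 9.63 on all 3 WT arrays, a tie whose origin is not stated and which leaves no spread in WT, and 10.81, 10.58 and 10.69 in MyD88KO cells, and was 1.06 ± 0.05 log2 units higher in MyD88KO than in WT (limma, adjusted p = 2.78e-05). Plod2, the lysyl hydroxylase of the chain ends that crosslink, fell from 10.09, 10.21 and 10.15 in WT to 8.61, 9.22 and 8.72 in MyD88KO cells (adjusted p = 0.000256), and P3h2, a prolyl 3-hydroxylase, fell from 8.29, 8.45 and 8.45 to 7.21, 7.52 and 7.48 (0.000121). Crtap (0.17) and Colgalt1 (0.21) rose, and the collagen chaperone gene Serpinh1 did not pass (0.14, adjusted p = 0.138).

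Of 7 genes for procollagen cleavage, Pcolce2, an enhancer of the cleavage of the C-terminal propeptide, rose (0.78 ± 0.06, limma, adjusted p = 0.000227). Of 4 crosslinking enzymes, the lysyl oxidase Loxl3 rose (1.20 ± 0.19, adjusted p = 0.00606). Among 7 receptor genes, 2 rose and 3 fell: Itga11, the α11 integrin that binds fibrillar collagen, read 8.04, 7.87 and 8.09 in WT and 9.74, 9.43 and 9.64 in MyD88KO cells (1.60 ± 0.05, adjusted p = 8.68e-06), and Itga2, another collagen-binding integrin chain, read 7.13, 7.27 and 8.41 in WT and 4.99, 5.41 and 5.34 in MyD88KO cells (-2.36 ± 0.23, adjusted p = 0.000541). Ddr2 rose by 0.29, while Ddr1 and the shared integrin chain Itgb1 differed by -0.49 and -0.15 and fell. The Ddr1 call lay close to the threshold (limma, adjusted p = 0.0498), and its WT and MyD88KO arrays overlapped.

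Of 10 genes for proteins that bind fibrils, 5 rose and 1 fell. Fibromodulin (Fmod, 1.01 ± 0.08), thrombospondin 2 (Thbs2, 0.93 ± 0.04), periostin (Postn, 0.88 ± 0.04), decorin (Dcn, 0.20) and lumican (Lum) were higher in MyD88KO cells, and fibronectin (Fn1, -0.20) was lower. Lum read 3.02 to 3.72 in WT and 4.34 to 4.53 in MyD88KO cells, near or below the median of all values, where signal cannot be told from background. Of 12 ligands, receptors and targets of TGF-beta, the pathway best known for raising fibrillar collagen in fibroblasts, 0 rose and 2 fell, Tgfbi (-0.73 ± 0.09, limma, adjusted p = 0.0018) and Tgfb2 (-0.31 ± 0.07, adjusted p = 0.0267).

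Markers of cell types moved with these differences. Of 10 fibroblast markers, 7 rose and 1 fell in MyD88KO cells, led by Pdgfra (2.43) and Thy1 (2.22), and their summed signal was 14.40 to 14.45 log2 units against 14.13 to 14.17 in WT and 14.15 to 14.17 in SKO cells. Among these, the rises of Dcn, Lum and Postn and the fall of Fn1 were already counted with the fibril-binding genes above. Lum could not be told from background. Of 8 markers of smooth muscle and pericytes, 1 rose and 4 fell (summed 13.95 to 14.07 against 14.07 to 14.12 in WT), with Rgs5 at -4.69. Of 10 skeletal muscle markers, 0 rose and 6 fell (9.95 to 10.38 against 10.38 to 10.65). Of 10 chondrocyte markers, only Acan changed (1.29, higher), with summed signals of 9.28 to 9.53 against 9.03 to 9.35 in WT and 8.69 to 8.74 in SKO cells; 3 of the 10 were at or above 4.44 on all arrays and 4 below it on all. Of 8 epithelial markers 2 fell (summed 8.29 to 8.58 against 9.65 to 9.83 in WT), with Cldn4 at -3.78. Of 7 endothelial markers 2 fell (7.73 to 8.03 against 8.63 to 8.85). Of 6 adipocyte markers 1 rose (7.85 to 8.01 against 7.19 to 7.37). Of 10 leukocyte markers 1 rose (9.82 to 10.01 against 9.54 to 9.79). Of 6 osteoblast (6.58 to 6.71 against 6.55 to 6.67) and 6 neural markers (8.07 to 8.46 against 8.01 to 8.10) 0 changed. The part of these markers in the collagen differences was not tested.

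Between SKO and WT cells, 0 collagen genes rose and 2 fell, where 0.627% of all genes rose and 0.577% fell; at 2-fold or more there were 0 collagen genes in either direction, where 0.203% and 0.0541% of all genes were. Col12a1 was 0.34 ± 0.03 log2 units lower in SKO cells (fitted difference -0.34, limma, adjusted p = 0.00602) and Col11a1 differed by -0.38 ± 0.06 (adjusted p = 0.0419), with the arrays given above. Both calls rest on few arrays: without the WT dsDNA array the adjusted p was 0.0622 for Col12a1 and 0.261 for Col11a1, and Col11a1 also missed the threshold without the WT mock array (0.187), the WT LPS array (0.211), the SKO mock array (0.197), the SKO LPS array (0.16), the MyD88KO mock array (0.0721) or the MyD88KO LPS array (0.083). Without limma's trend of variance on signal, neither passed (0.0806 and 0.0929). At an unadjusted p under 0.05 there were 9 collagen genes and 2651 genes in all.

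Several chains were lower on all SKO arrays by amounts that did not pass. Col6a3 differed by -0.43 ± 0.09 (limma, adjusted p = 0.0791), Col5a2 by -0.18 ± 0.05 (0.167), Col1a2 by -0.15 ± 0.03 (0.0906) and Col3a1 by -0.15 ± 0.05 (0.326). In all, the 3 SKO arrays lay below the 3 WT arrays for 8 collagen genes and above them for 4, where 8.23% and 8.81% of all genes did. For Col1a2 the probe sets disagreed in size: the second, dimmer probe set was 1.04, 1.20 and 0.39 log2 units lower in SKO than in WT cells with mock, dsDNA and LPS, a mean difference of -0.88, against -0.15 for the brighter one.

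Of the assembly genes, P4ha3 (-0.59 ± 0.05, limma, adjusted p = 0.00372), the lysyl oxidase Loxl1 (-0.28 ± 0.04, adjusted p = 0.0147) and Thbs2 (-0.28 ± 0.04, adjusted p = 0.0255) fell in SKO cells, and 0 of the cleavage, receptor and TGF-beta genes changed. Markers moved here too. Of 10 leukocyte and macrophage markers 4 rose, led by Adgre1 (1.68). Their summed signal was 10.18 to 10.35 log2 units in SKO against 9.54 to 9.79 in WT and 9.82 to 10.01 in MyD88KO cells. Of 10 chondrocyte markers 1 fell, the cartilage regulator Sox9 (-0.68). Of 8 smooth muscle and pericyte markers 1 fell, the smooth muscle myosin gene Myh11 (-0.76). Of 10 skeletal muscle markers 1 fell, the muscle fusion gene Mymk (-1.39). Of 10 fibroblast, 6 osteoblast, 8 epithelial, 7 endothelial, 6 neural and 6 adipocyte markers 0 changed. The part of these markers in the collagen differences was not tested.

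The direct comparison of SKO with MyD88KO cells, which shares its arrays with those above, gave 3 collagen genes higher and 11 lower in SKO, where 8.67% and 7.47% of all genes were. At 2-fold or more 2 were higher and 4 lower, where 1.15% and 1.3% of all genes were. The higher ones were Col2a1 (1.40), Col11a1 (1.04) and Col8a1 (0.73), and the lower ones ran from Col6a3 (-3.39) and Col6a2 (-2.22) to Col3a1 (-0.37) and Col1a1 (-0.34). Col15a1 (-0.41) missed the threshold without any 1 of 5 arrays: the SKO mock (adjusted p = 0.0901), SKO dsDNA (0.0676), MyD88KO mock (0.0519), MyD88KO dsDNA (0.0738) and MyD88KO LPS (0.0591) arrays.

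No collagen gene passed a test of either treatment. Comparing each treated array with the mock array of its genotype, 0 collagen genes reached 2-fold in either direction in any of the 6 comparisons, each of which has 1 array a side and no replicate check. Among all genes with enough signal, 1.94% were at least 2-fold higher and 0.101% lower with dsDNA in WT cells, 0.143% and 0.00716% in SKO cells, and 3.31% and 0.371% in MyD88KO cells. With LPS these shares were 0.864% and 0.072% in WT, 0.536% and 0.0143% in SKO and 0.595% and 0.0573% in MyD88KO cells. The median collagen change with dsDNA was -0.08 log2 units in WT, -0.01 in SKO and -0.15 in MyD88KO cells, and with LPS it was -0.05, -0.04 and -0.05. The widest single changes were in MyD88KO cells: Col28a1 with dsDNA (0.78, from 4.09 to 4.87, near the median of all values) and Col2a1 with LPS (-0.85, from 6.32 to 5.47).

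**Figure D3:**
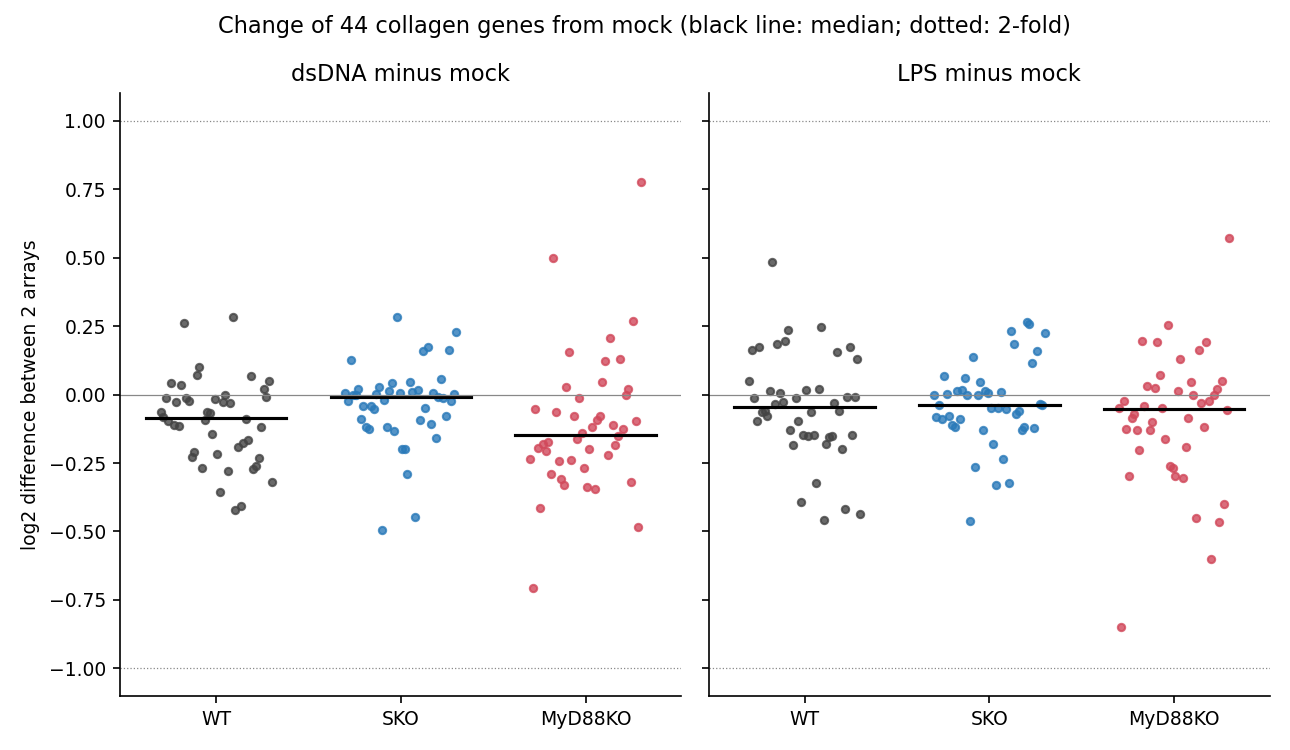
Log2 change from the mock array of each of the 44 collagen genes, with dsDNA and with LPS, in each genotype; each point is 1 gene, black lines are medians and dotted lines mark 2-fold. No point reaches 1 log2 unit (2-fold) in either direction, and the points of dsDNA in MyD88KO cells have the lowest median (-0.15).

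A limma fit with 1 dsDNA response shared by WT and MyD88KO cells, the genotypes that have STING by their labels or by the Sting1 signal, took those 2 pairs of arrays as replicates. In it 0 of the 44 collagen genes passed, where 2.89% of all genes rose and 0.897% fell; 8 collagen genes and 3467 genes in all had an unadjusted p under 0.05, and limma with robust eBayes also gave 0. The fitted change was negative for 38 of the 44, with a median of -0.13 log2 units beside -0.02 over all genes. The signal was lower in both genotypes for 29 collagen genes (65.9%), where 31.7% of all genes were, and higher in both for 6 (13.6%), where 24.9% were. With LPS, 16 collagen genes (36.4%) were lower in both WT and SKO cells, where 23.5% of all genes were. Those higher in both with LPS were 5 (11.4%), where 21.8% of all genes were. Within a genotype, dsDNA and LPS were compared with the same single mock array. In the fit of the shared dsDNA response, 1 of 10 fibroblast markers (Twist1, 0.69) and 1 of 10 chondrocyte markers (Sox9, 0.43) rose. The medians of these lists were -0.01 and -0.04 log2 units, beside -0.02 over all genes. The falls were in 1 of 8 smooth muscle and pericyte markers (Mcam, -0.34), 1 of 10 skeletal muscle markers (Acta1, -0.39) and 1 of 8 epithelial markers (Krt18, -0.51). No osteoblast, leukocyte, endothelial, neural or adipocyte marker passed. The part of these markers in the collagen changes was not tested.

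The collagen genes with the lowest adjusted p in this fit were Col6a1 and the basement membrane chains Col4a1 and Col4a2. The other 4 type IV chains had adjusted p-values of 0.292 (Col4a3), 0.862 (Col4a4), 0.621 (Col4a5) and 0.727 (Col4a6) by limma. Col4a1 read 9.51 in mock and 9.28 with dsDNA in WT cells, 9.49 and 9.18 in MyD88KO cells, and 9.41 and 9.41 in SKO cells. Col4a2, its neighbour on chromosome 8, read 9.54 and 9.33, 9.55 and 9.21, and 9.48 and 9.50 in the same order. For both genes the dsDNA array was the lowest of its genotype in WT and MyD88KO cells and not in SKO cells. The shared changes were -0.26 ± 0.06 for each (limma, adjusted p = 0.0801 for Col4a1 and 0.0794 for Col4a2) and -0.29 ± 0.06 for Col6a1 (0.0785). Col6a1 did not have the level SKO values of these genes: it changed by -0.35 in WT, -0.20 in MyD88KO and also -0.20 in SKO cells.

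With dim genes left out of the fit, Col6a1 (adjusted p = 0.0482 and 0.0426, for genes at or above 4.44 on at least 1 array and on average) and Col4a2 (0.0498 and 0.0437) passed, and Col4a1 passed under the second filter (0.0442). Over all alternatives the adjusted p ran from 0.0426 to 0.349 for Col6a1, from 0.0437 to 0.513 for Col4a2 and from 0.0442 to 0.511 for Col4a1. The difference of the dsDNA response between these genotypes and SKO was -0.28 ± 0.09 for Col4a2 (limma, adjusted p = 0.466) and -0.24 ± 0.09 for Col4a1 (0.539), and 0 collagen genes passed that test (2, and 1935 genes in all, had an unadjusted p under 0.05; robust eBayes gave 0), where 0.645% of all genes rose and 0.0135% fell.

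**Figure D4:**
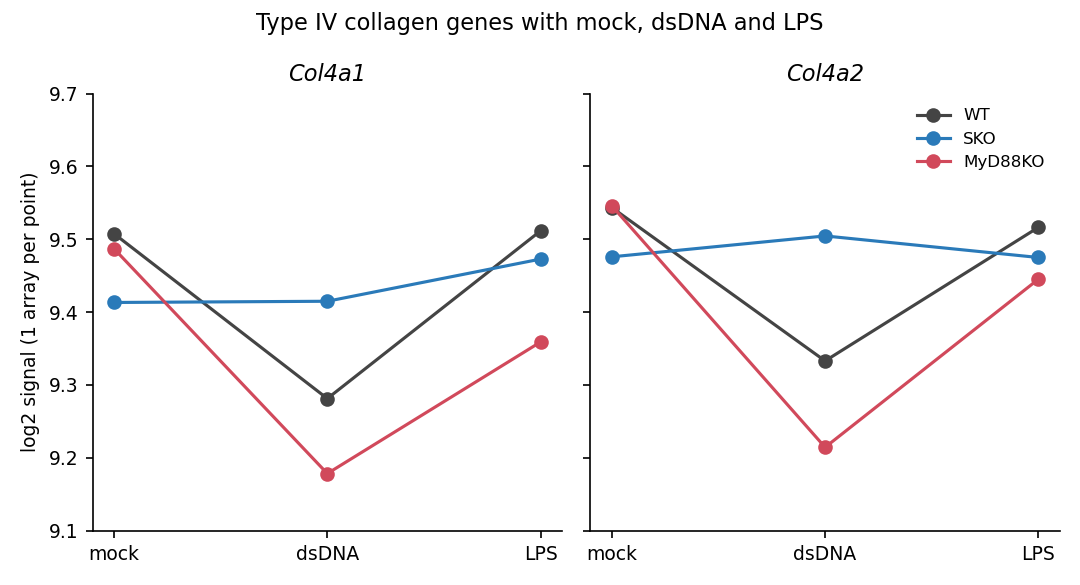
Log2 signal of Col4a1 and Col4a2 (1 array per point) with mock, dsDNA and LPS in WT, SKO and MyD88KO cells, joined by genotype, on an axis that does not start at 0. The dsDNA arrays of WT (9.28 and 9.33) and MyD88KO (9.18 and 9.21) cells are the lowest points, and the SKO points lie between 9.41 and 9.50.

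Type I collagen moved less. Col1a1 fell short of the threshold at -0.15 ± 0.04 (limma, adjusted p = 0.0982), with array differences of -0.12 in WT, -0.04 in SKO and -0.17 in MyD88KO cells. Its partner chain Col1a2 changed by -0.04 ± 0.04 (limma, adjusted p = 0.717), with -0.01 in WT, -0.04 in SKO and -0.06 in MyD88KO cells. Col5a3 was the fibrillar chain with the largest change the other way, 0.26 in WT and 0.50 in MyD88KO but -0.13 in SKO cells, without passing. In SKO cells alone, 0 collagen genes and 0% of all genes passed with dsDNA (limma; 1 collagen gene, Col22a1 at -0.38 ± 0.15, and 943 genes in all at an unadjusted p under 0.05; robust eBayes gave 0).

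Of the assembly, receptor, fibril-binding and TGF-beta genes, 0 passed with dsDNA in the shared fit. Loxl3, the lysyl oxidase that was higher in MyD88KO cells, came closest: it read 9.67 in mock and 10.76 with dsDNA in WT cells, 11.09 and 11.47 in MyD88KO cells, and 9.81 and 9.82 in SKO cells. It was thus higher with dsDNA in both genotypes with STING and level in SKO, with a shared change of 0.76 ± 0.15 (limma, adjusted p = 0.0506). The difference of the dsDNA response between these genotypes and SKO passed for 0 of the 4 crosslinking genes.

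With LPS, 0 collagen genes passed in a fit with 1 response shared by WT and SKO cells, where 0.194% of all genes rose and 0% fell; 1 collagen gene, Col1a1 at -0.10 ± 0.04 (limma, adjusted p = 0.89), had an unadjusted p under 0.05, as did 1199 genes in all, and robust eBayes gave 0. In MyD88KO cells 0 collagen genes passed, where 0.018% of all genes rose and 0% fell; 5, and 1707 genes in all, had an unadjusted p under 0.05, among them Col2a1 (-0.70 ± 0.20) and the transmembrane chain Col23a1 (-0.61 ± 0.17), both with an adjusted p of 0.518; robust eBayes gave 0 here too. Col23a1 read 6.24 in mock and 5.64 with LPS in MyD88KO cells, 6.34 and 6.14 in WT cells, and 6.20 and 6.46 in SKO cells, so its direction was not shared by the genotypes with MyD88. The difference of the LPS response between genotypes passed for 0 collagen genes and 0% of all genes (limma; 2 collagen genes and 1265 genes at an unadjusted p under 0.05; robust eBayes gave 0 collagen genes).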

How the data were processed

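Log2 expression signals were measured on 9 Affymetrix MoGene 2.0 arrays, 1 for each of 3 genotypes and 3 treatments, from 300 ng of total RNA each, per the labels' protocols. The deposited table holds 41345 probe sets as log2 signals made by the authors with Affymetrix Expression Console 1.3.1.187, per the submitters' processing notes; the sources used here do not give the summarisation, normalisation or genome build. Titles write MyD88KO where a protocol writes MyD99KO; the titles were followed.

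Of the probe sets, 23521 had 1 gene symbol and 1814 had several; only the former were used, 23328 of which matched RefSeq (GRCm38.p6) by gene ID. For the 1082 genes with more than 1 such probe set, the one with the highest mean was kept, giving 22180 genes, all tested. limma 3.58.1 in R 4.3.3 was fitted to these log2 values with an intensity trend. Genotypes were compared in a model of genotype plus treatment (4 residual degrees of freedom), and treatments in a model with responses shared between genotypes (2 residual degrees of freedom). The code of the limma fits was tested on simulated data. Alternatives were 2 filters on dim genes, no trend, robust eBayes, the mean of a gene's probe sets, quantile normalisation, an additive model, other fold thresholds and leaving out each array.

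Named genes were the collagen chain genes, with genes of collagen assembly, cleavage, crosslinking, receptors, fibril binding and TGF-beta, and markers of fibroblasts, smooth muscle, chondrocytes, osteoblasts, skeletal muscle, leukocytes, epithelium, endothelium, neural cells and adipocytes. The collagen genes and these lists were chosen with earlier results of these data known. The labels give no batch. The number of arrays limits the precision. Single-array fold changes were counted over genes that reached 4.44, the overall median signal, on 1 or both of the arrays.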

Additional observations from a re-analysis of the deposited data

How the results depend on the processing

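No collagen gene called between genotypes changed direction under any alternative run. Of the 14 calls between MyD88KO and WT cells, 11 passed under all 15 alternatives other than the fold thresholds; in 17 of 210 checks a call was lost, all of Col3a1 (8), Col5a2 (5) or Col5a1 (4). The count was 6 (4 higher and 2 lower) when at least 2-fold was required and 11 to 15 with 1 array left out. Between SKO and MyD88KO cells the count of 14 became 6 at 2-fold and 13 to 15 with 1 array left out. Between SKO and WT cells the count of 2 became 0 without the intensity trend, 1 after quantile normalisation, 0 at 2-fold and 0 to 3 with 1 array left out. For the shared dsDNA response the count of 0 became 2 with genes at or above the median on at least 1 array and 3 with genes whose mean was at or above it, where fewer genes were tested. For single arrays, summed over the 6 comparisons, the count of 0 became 4 at 1.5-fold, 1 higher and 3 lower of 252 collagen values, where 2.68% of the values of all genes were higher and 1.17% lower. Without the SKO dsDNA array the dsDNA response of SKO cells, and without the MyD88KO LPS array the LPS response of MyD88KO cells, could not be fitted. No paired analysis was possible because each combination of genotype and treatment has 1 array, so that groups share fewer than 2 replicate numbers to use as a block; the genotype fit matches arrays by treatment instead. Over all genes, the 267 calls between SKO and WT cells ranged from 51 to 320 with 1 array left out (154 without the trend), and the 2558 between MyD88KO and WT cells from 1481 to 3123. With 1 array per group, small responses in single genotypes have no replicate check, and signals near the median of all values could not be told from background.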
